A study of Mus musculus with 126 samples.

Results

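The mouse CADM, NCAM and TMEFF genes were followed through single cells of the endolymphatic sac. They comprise 8 genes of the 48490 gene identifiers measured, namely Cadm1, Cadm2, Cadm3, Cadm4, Ncam1, Ncam2, Tmeff1 and Tmeff2, and each was found in the table by its gene symbol. Their values were set out by genotype label and, among cells with the epithelial gene Epcam at 1 FPKM or more, by which of Aldh1a1 and Aldh1a3 was higher. FPKM is the number of fragments scaled by transcript length and by the mapped fragments of the cell. The 8 genes were chosen with their values by genotype and by Aldh1a1 or Aldh1a3 known, so the levels, shares and differences of the members are descriptions without a test.

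The cells came from the endolymphatic sac of the inner ear at embryonic stage E14.5. The labels give 93 cells the genotype Sox9Y440X/+, heterozygous for the Y440X allele of the transcription factor gene Sox9, and 33 cells the genotype wild-type. Each cell was profiled by Smart-seq2, a plate-based method that reads whole transcripts and uses no molecular identifiers. No animal, litter or treatment is named, so each genotype counts as 1 sample, its cells are not replicates, and no p-value is given between genotypes.

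CADM proteins (nectin-like or SynCAM molecules) and NCAM proteins belong to the immunoglobulin superfamily. They stand in the plasma membrane and bind partners on neighbouring cells, CADM proteins often through a different CADM member and NCAM proteins mostly through themselves. Inside the cell, CADM tails bind protein 4.1 and PDZ scaffold proteins, while NCAM1 can carry polysialic acid on its outer part and can signal with FGF and GDNF receptors. TMEFF proteins, also called tomoregulins, are of another build, with follistatin-like and EGF-like modules outside the cell, and are known for binding growth factors. All of these families are best known from the nervous system, and several members are also made in epithelia. The endolymphatic sac is an epithelial pouch that takes part in the volume and composition of endolymph. Aldh1a1 and Aldh1a3 encode enzymes that make retinoic acid.

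The genotypes differed in more than the allele. All 93 Sox9Y440X/+ cells have titles that begin with P9, whereas 32 of 33 wild-type cells have P10, and the meaning of these prefixes is not stated. Transcripts of Y-linked genes reached 1 FPKM in 4 of 93 Sox9Y440X/+ cells and 32 of 33 wild-type cells, and Xist in 81 of 93 and in 0 of 33. Genotype, title prefix and these sex-linked transcripts therefore cannot be told apart. The number of sequenced fragments per cell is unknown. The number of genes listed above 0 stood in for it, with a median of 4423 (2035 to 9358) in Sox9Y440X/+ cells and 5329 (2189 to 6493) in wild-type cells. Epcam was detected, meaning at 1 FPKM or more, in 81 Sox9Y440X/+ cells and 32 wild-type cells. These are called Epcam cells. The cut left no borderline cells, since the lowest Epcam value inside was 53.1 FPKM and all 13 cells outside were listed at 0. Among Epcam cells, Aldh1a1 was the higher gene in 41 Sox9Y440X/+ and 14 wild-type cells, and Aldh1a3 in 35 Sox9Y440X/+ and 16 wild-type cells. The remaining 5 Sox9Y440X/+ and 2 wild-type cells had neither gene at 1 FPKM. The higher gene was less than 4 times the lower in 2 Sox9Y440X/+ and 3 wild-type cells.

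Cadm2, Ncam2 and Tmeff2 were the members that stood higher both in Sox9Y440X/+ cells and in Aldh1a1-dominant cells. These 3 genes were picked for that pattern, and whether they change together was not tested. The 250 bases in front of their RefSeq transcription starts (assembly GRCm38.p6, the mm10 build) are printed as a description. They are chr16:67620909-67621158 for Cadm2 on the minus strand, chr16:81200447-81200696 for Ncam2 on the plus strand, and chr1:50927273-50927522 for Tmeff2 on the plus strand. Each runs 5′ to 3′ towards the start, and capitals mark matches to any of 4 motifs searched on both strands: the SOX core ACAAT or ATTGT, the CCAAT box CCAAT or ATTGG, the E-box CACGTG, and the nuclear receptor half-site AGGTCA or TGACCT.
Cadm2: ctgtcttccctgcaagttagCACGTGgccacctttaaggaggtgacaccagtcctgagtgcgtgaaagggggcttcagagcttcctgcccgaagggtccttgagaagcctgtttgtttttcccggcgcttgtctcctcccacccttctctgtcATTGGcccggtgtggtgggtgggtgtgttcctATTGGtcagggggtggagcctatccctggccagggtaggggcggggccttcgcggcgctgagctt
Ncam2: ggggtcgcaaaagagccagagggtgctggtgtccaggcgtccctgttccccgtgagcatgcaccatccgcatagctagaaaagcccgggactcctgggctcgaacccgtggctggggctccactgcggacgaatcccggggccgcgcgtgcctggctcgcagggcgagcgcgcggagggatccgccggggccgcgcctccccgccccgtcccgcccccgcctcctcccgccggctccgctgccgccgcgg
Tmeff2: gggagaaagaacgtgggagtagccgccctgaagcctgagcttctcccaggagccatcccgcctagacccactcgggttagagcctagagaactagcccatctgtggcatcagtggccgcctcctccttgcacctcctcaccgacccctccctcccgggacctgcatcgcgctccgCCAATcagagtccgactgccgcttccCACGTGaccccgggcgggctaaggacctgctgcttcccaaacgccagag
The Cadm2 window held the E-box 230 bases before the start and ATTGG at 97 and 65 bases before it. The Tmeff2 window held CCAAT at 75 bases and the E-box at 49 bases before the start. The Ncam2 window held no match and had the highest GC content of the 3, at 75.2%, against 60.8% for Cadm2 and 64.8% for Tmeff2. The median over 32851 RefSeq windows was 52.4%. Of those windows 6.02% held the E-box, 33.8% the CCAAT box, 27.7% the SOX core and 14.02% the half-site. None of the motifs contains another, and a match is a description of letters only. No SOX core was found in these 3 windows. The Tmeff1 window held ACAAT 143 bases and the Cadm4 window ATTGT 120 bases before the start, and the Cadm3 window held none of the motifs. The table gave a window for 6 of the 8 members, without Cadm1 and Ncam1.

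In the deposited table, counted from 1 on mm10, Cadm2 spans 66655421 to 67620908 on chromosome 16 (minus strand) and Ncam2 81200697 to 81624285 on the same chromosome (plus strand), 13.6 Mb apart. Tmeff2 spans 50900647 to 51187270 on chromosome 1 (plus strand), and the RefSeq start used above lies 26.9 kb inside that interval. Cadm3 is also on chromosome 1, at 173333258 to 173367695 (minus strand). Cadm1, at 47530173 to 47857637 (plus strand), and Ncam1, at 49502136 to 49798925 (minus strand), are both on chromosome 9, 1.64 Mb apart. Cadm4 lies at 24482023 to 24504539 on chromosome 7 (plus strand) and Tmeff1 at 48585174 to 48663131 on chromosome 4 (plus strand). Exons of Cadm2 overlap those of 1700010K23Rik and exons of Ncam1 those of Gm11149, both on the opposite strand, and exons of Cadm3 overlap those of Ackr1 on the same strand. The strand setting of the authors' quantification is not given in the sources used here, so the Cadm2 and Ncam1 values may include fragments of those partners.

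Of the CADM genes, Cadm1 and Cadm2 were in use in Epcam cells and Cadm3 and Cadm4 were hardly seen. Cadm2, the family member best known from the brain, ranged from 0 to 383 FPKM with a median of 3.47 in Sox9Y440X/+ Epcam cells, and from 0 to 152 FPKM with a median of 0 in wild-type Epcam cells. It was detected in 42 of 81 Sox9Y440X/+ cells (51.9%, 40.5 to 63.1%) and in 9 of 32 wild-type cells (28.1%, 13.7 to 46.7%). The ranges in parentheses are exact Clopper-Pearson 95% intervals and cover counting error only, not the spread between animals. The intervals of the genotypes overlapped, and both groups held many cells at 0. Among detecting cells the median was 76.4 FPKM in Sox9Y440X/+ cells and 66.6 FPKM in wild-type cells, and the mean log2(FPKM + 1) of these cells was 5.84 ± 1.64 and 5.41 ± 2.09 (SD over 42 and 9 cells).

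Cadm1, which is widely made in epithelia, did not follow this pattern. It ranged from 0 to 359 FPKM in Sox9Y440X/+ Epcam cells and from 0 to 98.2 FPKM in wild-type Epcam cells, with a median of 0 in both. It was detected in 30 of 81 Sox9Y440X/+ cells (37%, 26.6 to 48.5%) and 12 of 32 wild-type cells (37.5%, 21.1 to 56.3%), near-equal shares with wide intervals. Cadm4, a CADM protein of myelinating glia and epithelia, reached 1 FPKM in 1 Sox9Y440X/+ Epcam cell, at 53.4 FPKM, and in none of the 32 wild-type cells, a count of 0 that allows up to 9.375%. Cadm3, a neuronal member, was listed at 0 in every cell. At this depth a count of 0 allows up to 3.70% of the Sox9Y440X/+ and 9.375% of the wild-type Epcam cells.

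Of the NCAM genes, Ncam2 was the epithelial one. Ncam2, known as the olfactory cell adhesion molecule, ranged from 0 to 359 FPKM with a median of 7.94 in Sox9Y440X/+ Epcam cells, and from 0 to 74.7 FPKM with a median of 0 in wild-type Epcam cells. It was detected in 45 of 81 Sox9Y440X/+ cells (55.6%, 44.1 to 66.6%) and 12 of 32 wild-type cells (37.5%, 21.1 to 56.3%). The values overlapped, and the highest were in Sox9Y440X/+ cells. Among detecting cells the medians were 43.6 FPKM in Sox9Y440X/+ and 26.2 FPKM in wild-type cells, and the mean log2(FPKM + 1) was 5.40 ± 1.62 and 4.29 ± 1.46 (SD over 45 and 12 cells). Ncam1, the broadly neural and mesenchymal member, was detected in only 4 of 81 Sox9Y440X/+ (4.94%) and 1 of 32 wild-type Epcam cells (3.13%).

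Ncam1 was instead found among the 13 cells without Epcam, of which 12 were Sox9Y440X/+ and 1 was wild-type. It was detected in 5 of 12 Sox9Y440X/+ cells (41.7%, 15.2 to 72.3%), reaching 87.1 FPKM, and in the wild-type cell at 6.33 FPKM. All 6 of these cells also had the collagen gene Col1a1 or Col3a1, as did 10 of the 13. Cadm2 and Ncam2 were detected in 0 of the 13, which allows a share of up to 23.1%. Tmeff1 was detected in 4, Tmeff2 in 2 and Cadm1 in 1. The median number of listed genes in the 12 Sox9Y440X/+ cells was 4236, against 4453 in the Sox9Y440X/+ Epcam cells.

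Of the TMEFF genes, Tmeff2 was the more frequent in both genotypes. Tmeff2, whose product binds PDGF-AA and is shed from the membrane, ranged from 0 to 726 FPKM with a median of 6.24 in Sox9Y440X/+ Epcam cells, and from 0 to 98.8 FPKM with a median of 0 in wild-type Epcam cells. It was detected in 43 of 81 Sox9Y440X/+ cells (53.1%, 41.7 to 64.3%) and 8 of 32 wild-type cells (25%, 11.5 to 43.4%). Among detecting cells the medians were 75.4 FPKM in Sox9Y440X/+ cells and 72.9 FPKM in wild-type cells, and the mean log2(FPKM + 1) of these cells was 6.20 ± 1.76 and 5.46 ± 1.84 (SD over 43 and 8 cells). For each of these 3 genes the detecting Sox9Y440X/+ cells had the higher mean level, by less than the SD over cells. Tmeff1, whose product binds the Nodal co-receptor Cripto in frog and mammalian assays, ranged from 0 to 151 FPKM in Sox9Y440X/+ cells and from 0 to 29.3 FPKM in wild-type cells. It was detected in 19 of 81 Sox9Y440X/+ cells (23.5%, 14.8 to 34.2%) and 6 of 32 wild-type cells (18.75%, 7.21 to 36.4%).

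**Figure D1:**
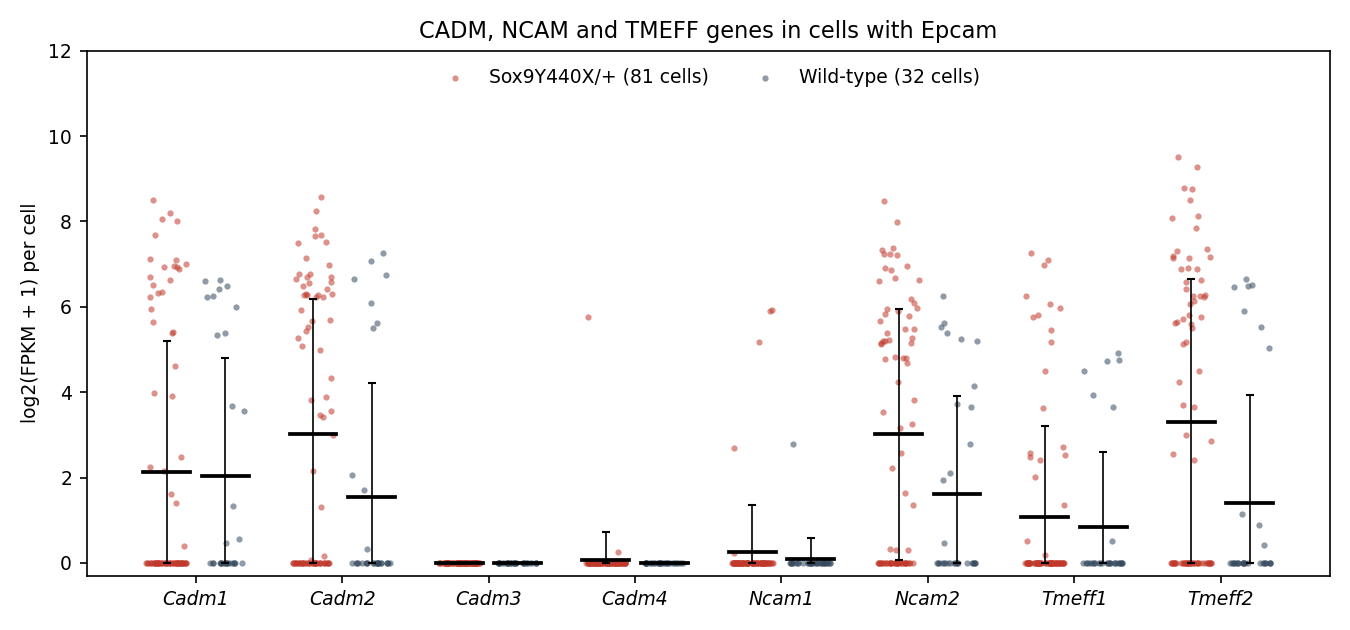
FPKM on a log2(FPKM + 1) axis for each member in Epcam cells, 81 Sox9Y440X/+ cells left of 32 wild-type cells. Each point is a cell and the bars are the mean and SD over cells, drawn no lower than 0. Cadm2, Ncam2 and Tmeff2 have more cells away from 0 among Sox9Y440X/+ cells, Cadm1 was detected in 37% and 37.5% of the cells, and Cadm3 is at 0 throughout.

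On the scale of mean log2(FPKM + 1), Tmeff2 stood at 3.29 ± 3.36 in Sox9Y440X/+ Epcam cells and 1.41 ± 2.54 in wild-type Epcam cells (SD over cells, n = 81 and 32). Cadm2 stood at 3.03 ± 3.16 in Sox9Y440X/+ and 1.53 ± 2.69 in wild-type cells, and Ncam2 at 3.01 ± 2.95 in Sox9Y440X/+ and 1.63 ± 2.27 in wild-type cells. Cadm1 stood at 2.14 ± 3.06 in Sox9Y440X/+ and 2.03 ± 2.78 in wild-type cells, and Tmeff1 at 1.07 ± 2.14 in Sox9Y440X/+ and 0.84 ± 1.76 in wild-type cells. The order of the levels was Tmeff2, Cadm2, Ncam2, Cadm1, Tmeff1, Ncam1, Cadm4 in Sox9Y440X/+ cells and Cadm1, Ncam2, Cadm2, Tmeff2, Tmeff1, Ncam1 in wild-type cells. Cadm1 thus led in wild-type cells and stood below the other 3 in Sox9Y440X/+ cells, but neighbours in either order differed by less than the SD over cells, except that Tmeff1 stood above Ncam1 (0.087 ± 0.49) in wild-type cells by more than the SD of Ncam1.

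To place these differences among all genes, the difference of means, Sox9Y440X/+ minus wild-type, was taken for the 9761 genes that reached 1 FPKM in 10% or more of the pooled Epcam cells. The median difference was -0.17 and was subtracted to give a relative difference on the log2(FPKM + 1) scale, on which the change of scarce genes is understated. A relative difference of 1 or more was called higher, which held for 1.94% of the compared genes, and one of -1 or less was called lower, which held for 5.57%. Of the 8 members, 5 passed the filter on low values, 3 were higher (Cadm2, Ncam2 and Tmeff2) and 0 lower. The choice of members used genotype and class, so nothing is read from this count or from the counts within and between the classes. The relative difference was 2.06 for Tmeff2, 1.67 for Cadm2 and 1.56 for Ncam2, at rank 9, 18 and 31 from the top of the 9761 genes. Tmeff1, at 0.40, and Cadm1, at 0.28, were not called. With pseudocount 10 the values of Cadm2 (0.80) and Ncam2 (0.82) lay below the call size, as did that of Ncam2 (0.86) among cells with 3000 to 5000 listed genes. Cadm1 stood at 1.27 among those cells, past the call size, and was detected in 19 of 53 Sox9Y440X/+ and 2 of 12 wild-type cells there, so its near-equal shares did not hold at that range of listed genes. Tmeff1 was past the call size, at 1.25, when the log2 of mean FPKM was compared.

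The number of listed genes, which was lower in Sox9Y440X/+ cells, showed little relation to these transcripts in those cells. Over the 81 Sox9Y440X/+ Epcam cells, Spearman's correlation with the number of listed genes was -0.06 for Cadm2, 0.04 for Ncam2 and -0.16 for Tmeff2. Over the 32 wild-type Epcam cells it was 0.19, -0.09 and 0.46 in the same gene order. The 4 Sox9Y440X/+ cells with Y-linked transcripts included 0 with Cadm2, 1 with Ncam2 and 1 with Tmeff2. The lone wild-type cell with title prefix P9 had Ncam2 at 40.6 FPKM and the other members at 0. The part of the number of listed genes, title prefix and sex-linked transcripts in the genotype differences was not tested.

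By retinoic acid enzyme, Cadm2, Ncam2 and Tmeff2 were found in most Sox9Y440X/+ cells in which Aldh1a1 was the higher gene, and in a smaller share of those in which Aldh1a3 was. Cadm2 was detected in 29 of 41 Aldh1a1-dominant cells (70.7%, 54.5 to 83.9%) and 9 of 35 Aldh1a3-dominant cells (25.7%, 12.5 to 43.3%) of the Sox9Y440X/+ genotype. Ncam2 was detected in 30 of 41 (73.2%, 57.1 to 85.8%) of the Aldh1a1-dominant and 11 of 35 (31.4%, 16.9 to 49.3%) of the Aldh1a3-dominant cells. For both genes the counting intervals of the classes did not overlap, but the share of all genes for which this holds was not counted. The members were chosen with their class values known, so nothing is read from it. Tmeff2 was detected in 27 of 41 Aldh1a1-dominant (65.9%, 49.4 to 79.9%) and 13 of 35 Aldh1a3-dominant cells (37.1%, 21.5 to 55.1%), with overlapping intervals. Of the 5 Sox9Y440X/+ cells with neither enzyme gene at 1 FPKM, Cadm2 and Ncam2 were each detected in 4 (80%, 28.4 to 99.5%). Tmeff2 was detected in 3 of them (60%, 14.7 to 94.7%). High shares were thus not confined to cells with Aldh1a1, though 5 cells are few. Of the 2 wild-type cells with neither enzyme gene, 0 had Cadm2, 1 had Ncam2 and 0 had Tmeff2.

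The wild-type cells showed the same order of the classes at lower shares, in small numbers. Cadm2 was detected in 7 of 14 Aldh1a1-dominant wild-type cells (50%, 23 to 77%) and 2 of 16 Aldh1a3-dominant ones (12.5%, 1.55 to 38.3%). Ncam2 was detected in 8 of 14 (57.1%, 28.9 to 82.3%) and 3 of 16 (18.75%, 4.05 to 45.6%), and Tmeff2 in 6 of 14 (42.9%, 17.7 to 71.1%) and 2 of 16 (12.5%, 1.55 to 38.3%). All of these wild-type intervals overlapped between the classes.

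Cadm1 and Tmeff1 did not divide this way. Cadm1 was detected in 36.6% of Aldh1a1-dominant and 37.1% of Aldh1a3-dominant Sox9Y440X/+ cells, and in 35.7% and 37.5% of these classes in wild-type cells. Tmeff1 was detected in 24.4% and 22.9% of these classes in Sox9Y440X/+ cells, and in 14.3% and 25% in wild-type cells. Ncam1 was detected in 1 of 41 Aldh1a1-dominant and 3 of 35 Aldh1a3-dominant Sox9Y440X/+ cells, and in 0 of 14 and 1 of 16 wild-type cells. The single Epcam cell with Cadm4 was an Aldh1a3-dominant Sox9Y440X/+ cell.

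**Figure D2:**
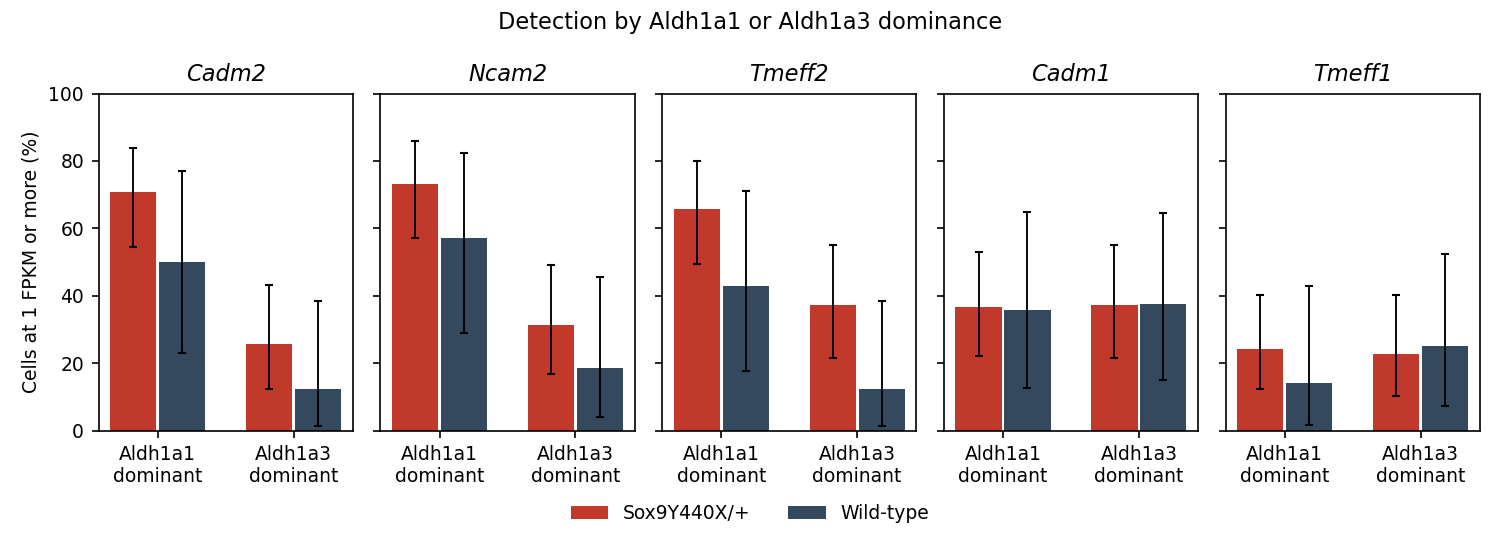
Percent of cells at 1 FPKM or more for the 5 more frequent members, in Aldh1a1-dominant and Aldh1a3-dominant cells of each genotype, Sox9Y440X/+ left of wild-type. Bars start at 0 and error bars are exact 95% intervals for counting error. The highest bars are those of Ncam2, Cadm2 and Tmeff2 in Aldh1a1-dominant Sox9Y440X/+ cells, at 73.2%, 70.7% and 65.9%.

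In level, Cadm2 ranged from 0 to 383 FPKM with a median of 50.8 in Aldh1a1-dominant Sox9Y440X/+ cells, and from 0 to 152 FPKM with a median of 1.14 in Aldh1a1-dominant wild-type cells. Ncam2 had a median of 34.3 FPKM and a maximum of 359 in the Sox9Y440X/+ cells, and a median of 3.06 and a maximum of 45.1 in the wild-type cells of this class. Tmeff2 had a median of 49.3 FPKM and a maximum of 726 in the Sox9Y440X/+ cells, and a median of 0.59 and a maximum of 98.8 in the wild-type cells. The groups overlapped for each gene. In Aldh1a3-dominant cells the medians of all 3 genes were 0 in both genotypes.

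Within Aldh1a1-dominant cells the genotype difference of these 3 genes was of similar size to that over all Epcam cells. Cadm2 averaged 4.33 ± 3.03 in Sox9Y440X/+ and 2.50 ± 2.997 in wild-type cells on the log2(FPKM + 1) scale, a relative difference of 2.02. Ncam2 averaged 3.94 ± 2.79 and Tmeff2 4.25 ± 3.395 in Sox9Y440X/+ cells, against 2.22 ± 2.20 and 2.71 ± 3.09 in wild-type cells (SD over cells, n = 41 and 14), relative differences of 1.91 and 1.73. Of the 5 members compared, 3 were called higher and 0 lower, where 5.86% of 9880 compared genes were called higher and 9.17% lower. Cadm1, at 0.77, and Tmeff1, at 0.71, fell short of the call. Tmeff2 was at 0.99 with pseudocount 10, Tmeff1 was past the call size at 1.14 with pseudocount 0.1, and Cadm1 at 2.18 among cells with 3000 to 5000 listed genes, of which 3 were wild-type.

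Within Aldh1a3-dominant cells 1 of the 5 compared members, Tmeff2, was called higher and 0 lower, where 6.17% of 9498 compared genes were called higher and 11.4% lower. Tmeff2 averaged 2.08 ± 2.96 in Sox9Y440X/+ and 0.44 ± 1.48 in wild-type cells (SD over cells, n = 35 and 16), a relative difference of 1.85. The relative difference was 0.77 for Cadm2 and 0.71 for Ncam2, while Cadm1 (0.21) and Tmeff1 (-0.01) were near the median of all genes. With pseudocount 10 Tmeff2 was at 0.87, and with pseudocount 0.1 Cadm2 was at 1.35 and Ncam2 at 1.37. Among cells with 3000 to 5000 listed genes, 26 Sox9Y440X/+ and 8 wild-type, Cadm1 was at 1.72 and Ncam2 at -0.27. Whether the genotype difference of any member differed between the classes was not tested.

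Set between the classes, Aldh1a1-dominant minus Aldh1a3-dominant, the relative difference in Sox9Y440X/+ cells was 2.78 for Cadm2, 2.25 for Ncam2 and 2.06 for Tmeff2. In wild-type cells it was 1.56 for Cadm2, 1.08 for Ncam2 and 2.21 for Tmeff2. In each genotype 3 of the 5 compared members were called higher and 0 lower. The background was 8.39% higher and 4.92% lower of 9677 genes in Sox9Y440X/+ cells, and 12.5% higher and 10.3% lower of 10830 genes in wild-type cells. Cadm1 (-0.42 in Sox9Y440X/+ and -0.95 in wild-type cells) and Tmeff1 (0.15 and -0.54) were not called in either. In wild-type cells Cadm2 (0.69) and Ncam2 (0.28) were below the call size with pseudocount 10, as was Ncam2 (0.95) in cells whose higher enzyme gene was at least 4 times the lower. Cadm1 was past it, at -1.13 with pseudocount 0.1 and -1.10 after rescaling, and Tmeff1 at -1.06 without Foxi1 cells. Comparisons that use the same cells are not independent of one another.

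**Figure D3:**
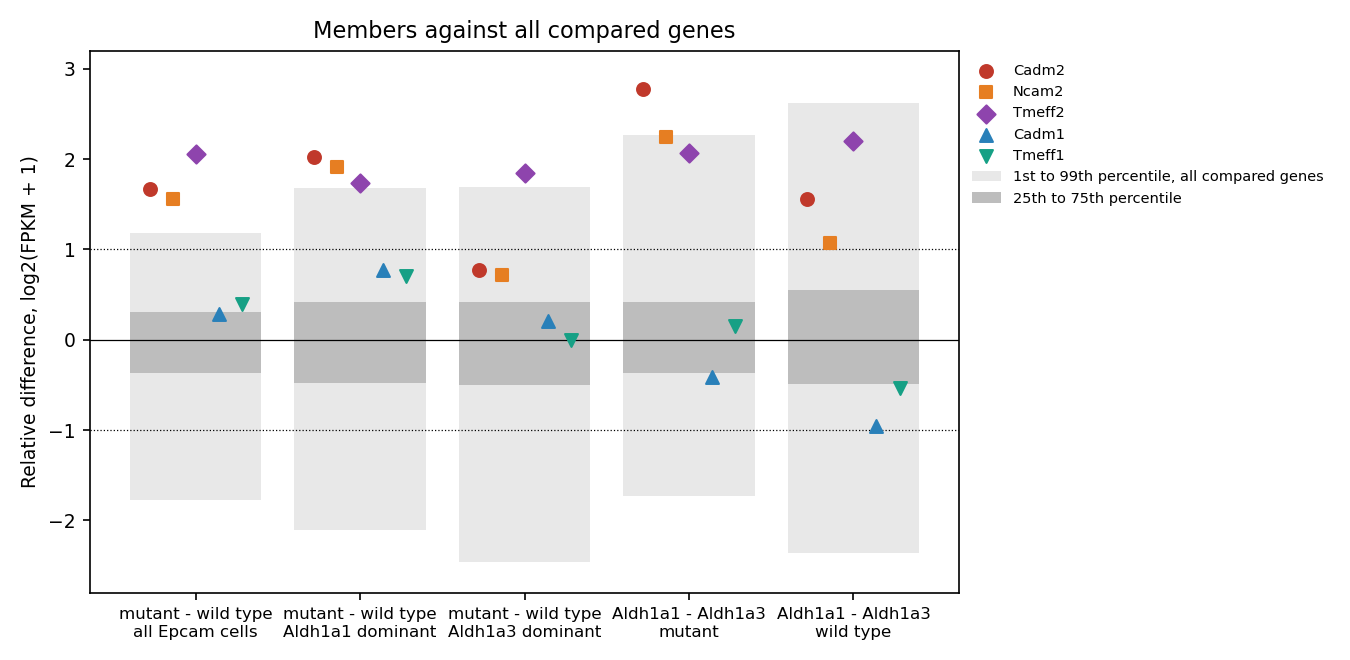
Relative difference on the log2(FPKM + 1) scale of the compared members in the 5 comparisons, with dotted lines at 1 in either direction. Grey bars span the percentiles of all compared genes that the legend names. Cadm2, Ncam2 and Tmeff2 lie above 1 in each comparison except for Cadm2 and Ncam2 between genotypes in Aldh1a3-dominant cells, at 0.77 and 0.71.

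Cadm2, Ncam2 and Tmeff2 were often detected in the same cells. All 3 were detected in 25 of 81 Sox9Y440X/+ Epcam cells (30.9%, 21.1 to 42.1%) and 5 of 32 wild-type Epcam cells (15.6%, 5.28 to 32.8%). In Aldh1a1-dominant cells the count was 22 of 41 in Sox9Y440X/+ (53.7%, 37.4 to 69.3%) and 5 of 14 in wild-type cells (35.7%, 12.8 to 64.9%). In Aldh1a3-dominant cells it was 2 of 35 in Sox9Y440X/+ and 0 of 16 in wild-type cells. In cells with neither enzyme gene at 1 FPKM it was 1 of 5 and 0 of 2. The 3 genes were picked for standing higher in Aldh1a1-dominant cells, so nothing is read from the class of the cells with all 3. None of the 3 was detected in 22 of 81 Sox9Y440X/+ and 16 of 32 wild-type Epcam cells.

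By pairs, 33 Sox9Y440X/+ Epcam cells had both Cadm2 and Ncam2, of 42 with Cadm2 and 45 with Ncam2, and Spearman's correlation of the levels across the 81 cells was 0.54. In wild-type Epcam cells 8 had both, of 9 with Cadm2 and 12 with Ncam2, and the correlation across the 32 cells was 0.53. The Spearman correlation between Cadm2 and Tmeff2 was 0.43 in Sox9Y440X/+ and 0.35 in wild-type cells, and between Ncam2 and Tmeff2 0.45 and 0.37. Both classes are pooled in these values. Within Aldh1a1-dominant cells the correlation between Cadm2 and Ncam2 was 0.56 over 41 Sox9Y440X/+ cells and 0.74 over 14 wild-type cells. Within Aldh1a3-dominant Sox9Y440X/+ cells it was 0.20 over 35 cells. All cells of a genotype share a sample, and many values are 0, so these are descriptions.

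Over Epcam cells, the correlations of Cadm1 with Cadm2 and of Tmeff1 with Tmeff2 were lower than those among Cadm2, Ncam2 and Tmeff2. The latter genes were picked for a shared class pattern and both classes are pooled, so nothing is read from this. The Spearman correlation between Cadm1 and Cadm2 was -0.05 in Sox9Y440X/+ and 0.15 in wild-type Epcam cells. The Spearman correlation between Tmeff1 and Tmeff2 was 0.22 in Sox9Y440X/+ and -0.01 in wild-type Epcam cells. Of the Sox9Y440X/+ cells with Tmeff1, 15 of 19 also had Tmeff2 (78.9%), against 1 of 6 wild-type cells. That Sox9Y440X/+ share was near the 78.6% of cells with Cadm2 that also had Ncam2. In the reverse direction, 34.9% of Sox9Y440X/+ cells with Tmeff2 had Tmeff1, and 73.3% of those with Ncam2 had Cadm2.

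**Figure D4:**
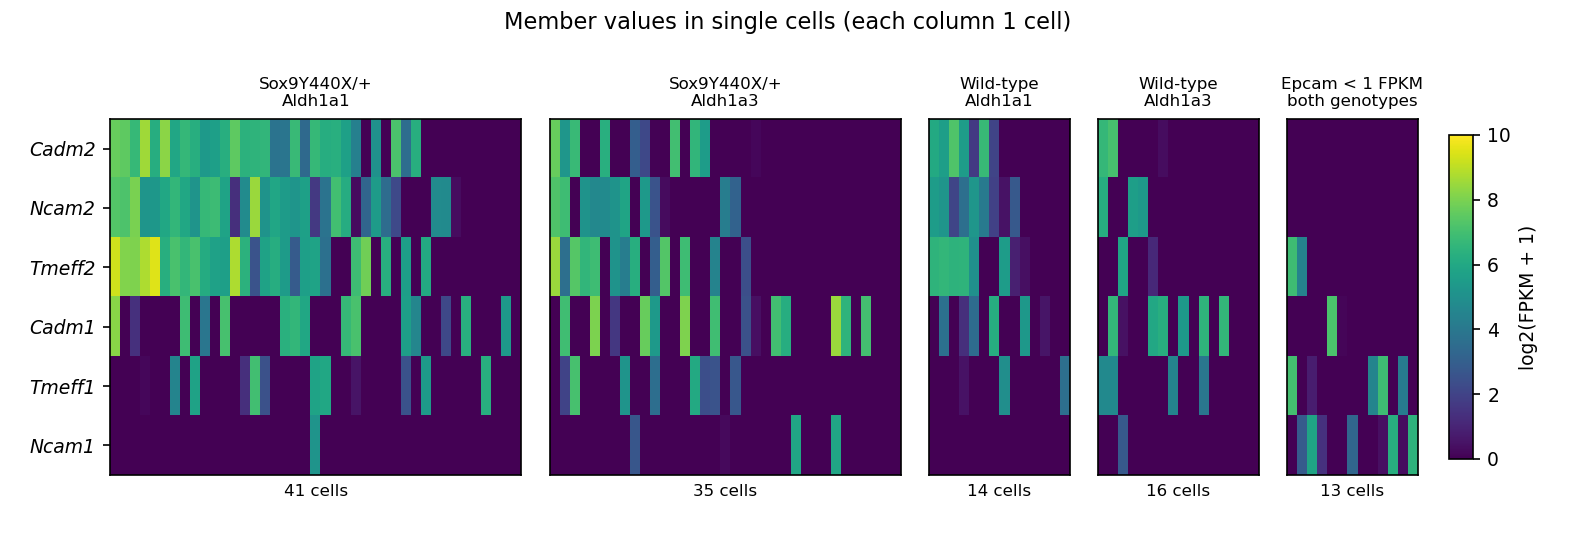
Levels of the members, as log2(FPKM + 1) by colour, in each cell of the classes and in the 13 cells without Epcam at the right. Columns are cells, ordered within a panel by how many of Cadm2, Ncam2 and Tmeff2 were detected and by their level, and Cadm3 and Cadm4 are not drawn. The rows of Cadm2, Ncam2 and Tmeff2 are filled together in Aldh1a1-dominant cells, where all 3 were detected in 22 of 41 Sox9Y440X/+ and 5 of 14 wild-type cells.

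Among the other genes, those most like a member were ranked by Spearman's correlation over the 81 Sox9Y440X/+ Epcam cells among 5939 genes that reached 1 FPKM in 20% or more of them. For Cadm2 they were Ncam2 (0.54), the apolipoprotein gene Apoc1 (0.52) and the selenoprotein gene Selm (0.49), with correlations of 0.53, -0.01 and 0.47 over the 32 wild-type Epcam cells. For Ncam2 they were Cadm2, the cadherin gene Cdh12 (0.49) and the long noncoding RNA Neat1 (0.49), with -0.11 for Cdh12 and 0.28 for Neat1 in wild-type cells. For Tmeff2 they were the growth factor gene Bmp7 (0.56), the lysosomal gene Ctsa (0.47) and Ldoc1 (0.47), with 0.05, 0.12 and 0.29 in wild-type cells. Of these likenesses only those of Ncam2 and Selm to Cadm2 were of similar size in wild-type cells.

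The genes most like Cadm1 were Mgrn1 (0.41), Smarca1 (0.39) and Orc2 (0.35), with correlations of -0.13, 0.61 and -0.19 in wild-type cells. Those most like Tmeff1 were Sepp1 (0.43), C1qtnf6 (0.40) and Mark2 (0.39), with 0.13, -0.10 and -0.02 in wild-type cells.

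The Aldh1a1-dominant cells were not uniform for these genes. Foxi1 encodes the forkhead factor of mitochondria-rich cells, the acid-base transporting cells of the sac, and dividing the class by it was chosen after the values were seen. Without Foxi1 at 1 FPKM, Cadm2 was detected in 28 of 32 Sox9Y440X/+ (87.5%, 71 to 96.5%) and 5 of 9 wild-type cells, Ncam2 in 27 of 32 (84.4%, 67.2 to 94.7%) and 6 of 9, and Tmeff2 in 25 of 32 (78.1%, 60.03 to 90.7%) and 4 of 9. With Foxi1 at 1 FPKM or more, Cadm2 was detected in 1 of 9 Sox9Y440X/+ cells, Ncam2 in 3 of 9 and Tmeff2 in 2 of 9, and each in 2 of 5 wild-type cells. The median number of listed genes was 5068 in the Sox9Y440X/+ cells with Foxi1 and 4637 in those without, and its part was not tested. With Foxi1 cells left out, the relative differences between genotypes in Aldh1a1-dominant cells were 3.17 for Cadm2, 1.97 for Ncam2 and 2.45 for Tmeff2, and Tmeff1 was past the call size at 1.38.

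Among Sox9Y440X/+ Epcam cells, the members were also set beside Oc90, which encodes an otoconial matrix protein, and the Wnt ligand genes Wnt6 and Wnt10a. Cadm2 was detected in 62.9% of the 35 cells with Oc90 and 43.5% of the 46 cells without, Ncam2 in 65.7% and 47.8%, and Tmeff2 in 62.9% and 45.7%. In the 40 cells with both Wnt6 and Wnt10a, Cadm2 was detected in 62.5%, against 41.5% of the other 41 cells, Ncam2 in 60%, against 51.2%, and Tmeff2 in 62.5%, against 43.9%. The counting intervals overlapped in each of these comparisons. Oc90 itself was detected in 22 of 41 Aldh1a1-dominant (53.7%) and 10 of 35 Aldh1a3-dominant Sox9Y440X/+ cells (28.6%). The part of the class in these shares was not tested.

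Genes whose products bind or modify the members were taken from lists of known partners chosen with earlier results in view, and their counts are over Epcam cells between genotypes. Of 13 CADM partners, 10 were compared, 1 was higher and 0 lower, with a median relative difference of 0.23, where the median over all compared genes is 0. The higher one was Adam10 (1.15), a membrane protease that sheds CADM1, detected in 53 of 81 Sox9Y440X/+ and 16 of 32 wild-type cells. The protein 4.1 gene Epb41l3 was at 0.76, Epb41l1 at -0.32 and the scaffold gene Cask at -0.67, none of them past the call size.

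Of 13 NCAM partners, 7 were compared, 0 were higher and 1 was lower, with a median of 0.05. The lower one was Gfra1 (-1.07), a GDNF receptor that binds NCAM1, detected in 62 of 81 Sox9Y440X/+ and 30 of 32 wild-type cells. The prion protein gene Prnp was at 0.22, the kinase gene Fyn at 0.12 and the agrin gene Agrn at -0.59. The polysialyltransferase gene St8sia2 was listed at 0 in every Epcam cell and St8sia4 was detected in 1 Sox9Y440X/+ cell.

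Of 12 TMEFF partners, 5 were compared and 0 were higher or lower, with a median of 0.46. The ligand gene Pdgfc was at 0.63 and Pdgfa, for the PDGF chain that TMEFF2 binds, at -0.18. The receptor gene Erbb4 was at 0.54 and the shedding protease gene Adam17 at -0.04. The Nodal pathway genes Nodal, Tdgf1 and Cfc1 were not detected in Epcam cells. Of 25 other immunoglobulin superfamily adhesion genes, 14 were compared, 1 was higher and 0 lower, with a median of 0.21. The higher one was Cxadr (1.09), a tight junction receptor gene detected in 43 of 81 Sox9Y440X/+ and 11 of 32 wild-type cells, followed by Igsf9 at 0.84, with Bcam at -0.49 and Pvr at -0.45 lowest. These shares of called genes are from lists of few genes and stand beside 1.94% higher and 5.57% lower over all compared genes.

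Because CADM, NCAM and TMEFF genes are prominent in neurons and glia, markers of those cells were read in the same Epcam cells. Of 8 neuronal markers measured, 6 were detected in no Sox9Y440X/+ and 7 in no wild-type Epcam cell, and their summed level had a median of 0 in both and a maximum of 64.05 FPKM in Sox9Y440X/+ and 53.7 FPKM in wild-type cells. Of 12 glial and neural crest markers, only 4 were detected in no Sox9Y440X/+ and 5 in no wild-type Epcam cell. Detection in 10% or more of the Epcam cells held for 4 of them in Sox9Y440X/+ and 5 in wild-type cells. Foxd3, Fabp7 and Ednrb were detected in no Epcam cell of either genotype. Sox10, a gene of the SOXE group, was detected in 10 of 81 Sox9Y440X/+ and 26 of 32 wild-type Epcam cells. The summed level of all 12 had a median of 7.72 FPKM (0 to 139.6) in Sox9Y440X/+ and 81.8 FPKM (0 to 326) in wild-type Epcam cells. All 7 epithelial markers were detected in both genotypes, with sums of 1470 to 8637 FPKM in Sox9Y440X/+ and 1154 to 7853 FPKM in wild-type cells. Summed mesenchymal markers had a median of 63.9 FPKM (0 to 1363) in Sox9Y440X/+ and 196 FPKM (0 to 1578) in wild-type Epcam cells, and of 931 FPKM in Sox9Y440X/+ cells without Epcam. Summed mitochondria-rich markers had a median of 48.9 FPKM (0 to 3534) in Sox9Y440X/+ and 106 FPKM (0 to 4388) in wild-type Epcam cells. Summed endothelial, erythroid and macrophage markers had a median of 0 in both genotypes. The endothelial sum reached 64.7 FPKM in Sox9Y440X/+ and 21.8 FPKM in wild-type cells, and the macrophage sum 48.9 FPKM in Sox9Y440X/+ and 3.26 FPKM in wild-type cells. The erythroid sum reached 118927 FPKM in 1 Aldh1a3-dominant Sox9Y440X/+ cell, which also had the most listed genes (9358), and at most 54.8 FPKM in any other cell. That cell had Cadm1 at 40.7, Tmeff1 at 11.3, Tmeff2 at 6.95 and Ncam2 at 4.93 FPKM. Without it the relative differences between genotypes in Epcam cells were 1.72 for Cadm2, 1.58 for Ncam2 and 2.07 for Tmeff2, and the members called were unchanged in number. The part of such transcripts in the member values was not tested.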

How the data were processed

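Single endolymphatic sac cells were measured by Smart-seq2, and cells were grouped by the genotype label. The authors deposited 1 table of FPKM values. Cufflinks, HTSeq, HISAT2 and SAMtools 0.1.18 are named in the submitters' processing notes, with the build mm10 and no role or order. The sources used here do not give strand setting, annotation or filters. In it are 48555 rows under 48490 identifiers, and the 49 identifiers with several rows were summed. Whole reads could not be recovered, since at most 5 of 1573 to 2741 genes shared 1 ratio between 2 cells within 0.05%, so depth is unknown and no count model was used. FPKM sums per cell ran from 60901.7 to 16361100. Table starts are counted from 0, as start plus 1 equals the GENCODE vM21 start for 90.98% of 48131 matched identifiers, and 1 was added.

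Levels are means of log2(FPKM + 1), a pseudocount of 1, and detection is 1 FPKM. Differences are given less the median over genes at 1 FPKM in 10% of the pooled cells, and the calculation was tested on simulated data. A share of 0 has a limit of 3 counts of the total. No cell was removed, and doublets were not called because callers need counts. The members and lists were chosen with earlier results of these data known. Named were all 8 members, the 3 genes most like each member found in 20% of Epcam cells, leaving out predicted, sex-linked, mitochondrial and haemoglobin genes, and the 2 highest and 2 lowest compared genes of each partner list. Alternatives changed the pseudocount, filter, scaling, Epcam cut, Aldh1a1 to Aldh1a3 margin and cells used. Some marker results are not reported here. Python 3.11.15, numpy 2.4.6, scipy 1.17.1, pandas 2.3.3 and matplotlib 3.10.9 were used.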

Additional observations from a re-analysis of the deposited data

How the results depend on the processing

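The relative difference of a member crossed the call size in 19 of 220 recomputed values, and no called value changed sign. This count leaves out members that lost their call by missing the filter on low values. The number of members called higher differed in 13 of 44 recomputations, in 6 of them by more than 1.5 times. Some of these recomputations could not differ. An Epcam cut of 5 FPKM kept the same 81 and 32 cells. Leaving out Sox9Y440X/+ cells with Y-linked transcripts did not touch the class comparison in wild-type cells. Between genotypes in Epcam cells the member count was 3, and 1 with pseudocount 10 and 1 with genes compared at 50% of cells, where Cadm2 and Tmeff2 missed the filter. From the log2 of mean FPKM it was 4. Of all compared genes 1.94% were called higher in the main comparison, and 0.17%, 5.51% and 8.71% in these settings in that order. In Aldh1a1-dominant cells the member count was 3, and 2 with pseudocount 10. It was 4 with pseudocount 0.1, in the window of 3000 to 5000 listed genes and without Foxi1 cells. Of all compared genes 5.86% were called higher in the main comparison and 0.53% with pseudocount 10. The settings with 4 members had 17.1%, 18.5% and 10.6% in that order. In Aldh1a3-dominant cells the member count was 1, and 3 with pseudocount 0.1, 0 with pseudocount 10 and 2 among cells with 3000 to 5000 listed genes. Of all compared genes 6.17% were called higher in the main comparison, and 16.6%, 0.59% and 12.3% in these settings in that order. Between classes in wild-type cells the member count was 3, 1 with pseudocount 10, and 2 with the margin of 4 times. It was also 2 in the window, of 3 Aldh1a1-dominant and 8 Aldh1a3-dominant cells, where Tmeff2 missed the filter. Of all compared genes 12.5% were called higher in the main comparison, and 2.80%, 14.2% and 24.8% in these settings in that order. Between classes in Sox9Y440X/+ cells the member count was 3 throughout, where 2.04% to 17.4% of all compared genes were called higher. The pseudocount sets how far cells at 0 lie from the rest, and the other causes were not tested. Between genotypes in Epcam cells the relative difference ran from 0.80 to 2.59 for Cadm2, 0.82 to 2.32 for Ncam2 and 1.07 to 3.07 for Tmeff2. The 3000 to 5000 window left 53 Sox9Y440X/+ and 12 wild-type cells, with Ncam2 at 0.86 and Cadm1 at 1.27 there, and with Ncam2 at -0.27 in Aldh1a3-dominant cells. The count of all genes called higher between genotypes in Epcam cells, 189, was 912 with pseudocount 0.1, 17 with pseudocount 10, 850 from the log2 of mean FPKM, 672 in the window, 360 after rescaling each cell to 1000000, 285 without Foxi1 cells and 112 without a filter. The count called lower, 544, was 1272 with pseudocount 0.1, 117 with pseudocount 10, 1015 in the window, 818 without a filter and 185 at 50% of cells. The number of compared genes differed, at 9761 in the main comparison, 9191 in the window, 19447 without a filter and 2632 at 50% of cells. As shares of these, 5.57%, 11.04%, 4.21% and 7.03% were called lower, and 1.94%, 7.31%, 0.58% and 5.51% higher. Leaving out Foxi1 cells or the cell with the highest erythroid sum was chosen after seeing the data, as were the recomputed shares by class and the class comparisons without Y-linked Sox9Y440X/+ cells. No paired analysis was possible because cells are numbered only to name them and no animal or litter is given. With 1 sample per genotype, no replicate could be left out.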

Other observations

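Some genes for other surface proteins of the sac also differed between the classes, not always the same way in both genotypes. The following genes were chosen after their values were seen, and each value is a relative difference, Aldh1a1-dominant minus Aldh1a3-dominant, on the log2(FPKM + 1) scale. The immunoglobulin superfamily gene Pvr, the poliovirus receptor, stood at 2.18 in Sox9Y440X/+ and 0.65 in wild-type cells, and F11r, the junctional adhesion molecule A gene, at 1.71 in Sox9Y440X/+ and 0.89 in wild-type cells. Mcam, another adhesion gene of this superfamily, lay the other way in both genotypes, at -2.55 in Sox9Y440X/+ and -2.16 in wild-type cells. Among NCAM partners, the receptor gene Fgfr2 stood at -2.25 in Sox9Y440X/+ and -0.32 in wild-type cells. Gfra1 stood at 0.22 in Sox9Y440X/+ and -2.69 in wild-type cells, and Fgfr1 at -1.44 in Sox9Y440X/+ and 1.25 in wild-type cells. Whether these values differed between genotypes was not tested. Of all compared genes, 8.39% were at 1 or more and 4.92% at -1 or less between the classes in Sox9Y440X/+ cells. In wild-type cells 12.5% and 10.3% were, so values of this size were not rare there.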
